A study of Mus musculus with 12 samples.

Results

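MicroRNA genes were examined in newly made RNA of mouse macrophages. A gene belonged to the set when its symbol in the probe annotation began with Mir and a digit or with Mirlet and its probe set named no other gene, and a gene with several was read from the one whose mean was highest. This gave 300 of 19937 named genes, of which 296 are microRNA loci and 4 are host transcripts (Mir17hg, Mir99ahg, Mir100hg and Mir670hg). A further 37 probe sets that name a microRNA together with another gene were not used.

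The 12 samples, all labelled as C57BL/6, formed 4 groups of 3: MPI-2 given LPS, MPI-2 mock-treated, BMM given LPS and BMM mock-treated. MPI-2 is a macrophage line that came from fetal liver and was kept in RPMI with GM-CSF, so its samples are cultures of 1 line, and BMM are macrophages grown out of bone marrow in DMEM with M-CSF. Lipopolysaccharide (LPS) is a bacterial cell wall component that macrophages sense through Toll-like receptor 4. RNA made within 60 min was marked with 4-thiouridine, which cells build into new transcripts, and this RNA was purified and read on whole-transcript arrays. LPS was given 30 min ahead of the label, so LPS samples hold RNA made up to 90 min after it. Titles call the replicates biological without saying what was kept separate, so a p-value here reflects only how far these samples scatter, which may be technical.

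A microRNA gene is transcribed as a long primary transcript, from which Drosha with Dgcr8 cuts a hairpin and Dicer1 then cuts the mature strands. The mature strand, held by an Argonaute protein, pairs with messenger RNAs mainly through its seed, bases 2 to 8, and lowers their translation and stability. Many loci lie in introns of host genes or in clusters that share 1 primary transcript. In macrophages, miR-155 is known as a strongly LPS-induced microRNA, and miR-146a and miR-146b dampen Toll-like receptor signalling through Irak1 and Traf6. The values below are of newly made RNA that hybridised at a locus. They are not levels of the mature microRNA, and the sources used here do not say whether a probe set covers the hairpin alone or more of the primary transcript.

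The mature sequences of the loci that the results turn on are printed from RefSeq, build GRCm38.p6, 5′ to 3′, with the seed in capitals. They are shown so that loci that moved together can be read against the seeds they share. The first set is a selection of loci that were higher after LPS in at least 1 cell type, where miR-221 and miR-222 share 1 seed and miR-146a and miR-146b another. The miR-155 strand lies at chr16:84714143-84714165 on the plus strand. The miR-221 strand lies at chrX:19146307-19146329 and the miR-222 strand at chrX:19146901-19146923, both on the minus strand.
mmu-miR-155-5p: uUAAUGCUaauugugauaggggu
mmu-miR-221-3p: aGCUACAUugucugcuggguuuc
mmu-miR-222-3p: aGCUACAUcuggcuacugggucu
mmu-miR-146a-5p: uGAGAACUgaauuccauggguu
mmu-miR-146b-5p: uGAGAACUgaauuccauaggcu
mmu-miR-125a-5p: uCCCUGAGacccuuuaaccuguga
mmu-let-7i-5p: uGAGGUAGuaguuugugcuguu

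The second set holds loci that were lower after LPS in BMM. Mir99a and Mirlet7c-1 are neighbours, with mature strands at chr16:77598940-77598961 and chr16:77599672-77599693 on the plus strand. Mir23a, Mir27a and Mir24-2 form another cluster, which begins with the miR-23a strand at chr8:84208563-84208583 and ends with the miR-24 strand at chr8:84208875-84208896, also on the plus strand. The let-7c seed is that of let-7i above.
mmu-miR-99a-5p: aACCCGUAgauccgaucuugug
mmu-let-7c-5p: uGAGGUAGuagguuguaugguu
mmu-miR-23a-3p: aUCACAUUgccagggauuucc
mmu-miR-27a-3p: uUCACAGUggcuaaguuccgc
mmu-miR-24-3p: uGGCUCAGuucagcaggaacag

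The third set holds the Mir17 cluster and the Mir15 and Mir16 loci, some of which were higher in MPI-2. The miR-17 strand lies at chr14:115043684-115043706 and the miR-19b strand of Mir19b-1 at chr14:115044358-115044380, on the plus strand. The miR-15b strand lies at chr3:69009775-69009796 on the plus strand, and the miR-15a strand at chr14:61632075-61632096 on the minus strand. The miR-17 and miR-20a strands share a seed, as do miR-19a with miR-19b, and miR-15a with miR-15b and miR-16.
mmu-miR-17-5p: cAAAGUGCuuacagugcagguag
mmu-miR-20a-5p: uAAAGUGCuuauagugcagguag
mmu-miR-18a-5p: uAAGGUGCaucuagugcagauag
mmu-miR-19a-3p: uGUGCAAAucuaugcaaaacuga
mmu-miR-19b-3p: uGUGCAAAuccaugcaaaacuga
mmu-miR-15a-5p: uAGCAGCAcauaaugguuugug
mmu-miR-15b-5p: uAGCAGCAcaucaugguuuaca
mmu-miR-16-5p: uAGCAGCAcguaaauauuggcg

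Most microRNA genes lay at background in these cells. Background was set at 3.36 on the log2 scale, the 95th percentile of the mean levels of 1027 olfactory receptor (Olfr) genes, which macrophages are not expected to transcribe. By the mean over the 12 arrays, 113 of 300 microRNA genes (37.7%) lay above it, against 12030 of 19937 genes (60.3%), and the median level was 2.89 for microRNA genes and 3.87 for all genes. By group means, 103 lay above it in MPI-2 LPS, 97 in MPI-2 mock, 121 in BMM LPS and 115 in BMM mock. In every group 86 lay above it and in none of the groups 164. Just inside the limit were Mir668 at 3.377, Mir449a at 3.394 and Mir378a at 3.398, and just outside were Mir362 at 3.348, Mir16-2 at 3.283 and Mir140 at 3.273. The highest Olfr gene reached 6.93, so a single locus above the limit may still be background.

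The probe sets with the highest means were Mir692-1 at 8.80, Mir15a at 8.04, Mir505 at 7.50, Mir346 at 7.01, Mir222 at 7.0, Mir7-1 at 6.86, Mir221 at 6.76 and Mir674 at 6.70. Mir667 and Mir598 followed at 6.52 each, then Mir155 at 6.49, Mir142, a microRNA of blood cells, at 6.40, Mir328 at 6.33, Mir342 at 6.31 and Mir680-2 at 6.18. Log2 array values do not rank transcripts of different genes, because probe sets differ in their response. Of 36 loci known from other tissues 32 were not above background, among them Mir122 of liver at 2.81, Mir1a-1 of muscle at 2.02 and Mir124a-2 of brain at 2.85. The other 4 were Mir138-2 at 3.98, Mir129-1 at 3.82, Mir375 at 4.24 and Mir194-1 at 4.28. Of 36 loci of the imprinted Dlk1-Dio3 region, 11 lay above background, led by Mir667, Mir673 at 5.09 and Mir540 at 4.64.

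The level of a locus moved with the base composition of its hairpin. For the 258 genes with a RefSeq hairpin, Pearson's r between the GC share of the hairpin and the mean level was 0.58, a description across genes that share their arrays. The genes were split into 4 groups by GC share. In the lowest group (28.4% to 42.4%) 5 of 65 genes lay above background, with a median level of 2.14. In the next groups 15 of 64 and 20 of 64 did, and in the highest (53.7% to 69.2%) 52 of 65 did, with a median of 4.24. The part of base composition in the count above background was not tested.

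**Figure D1:**
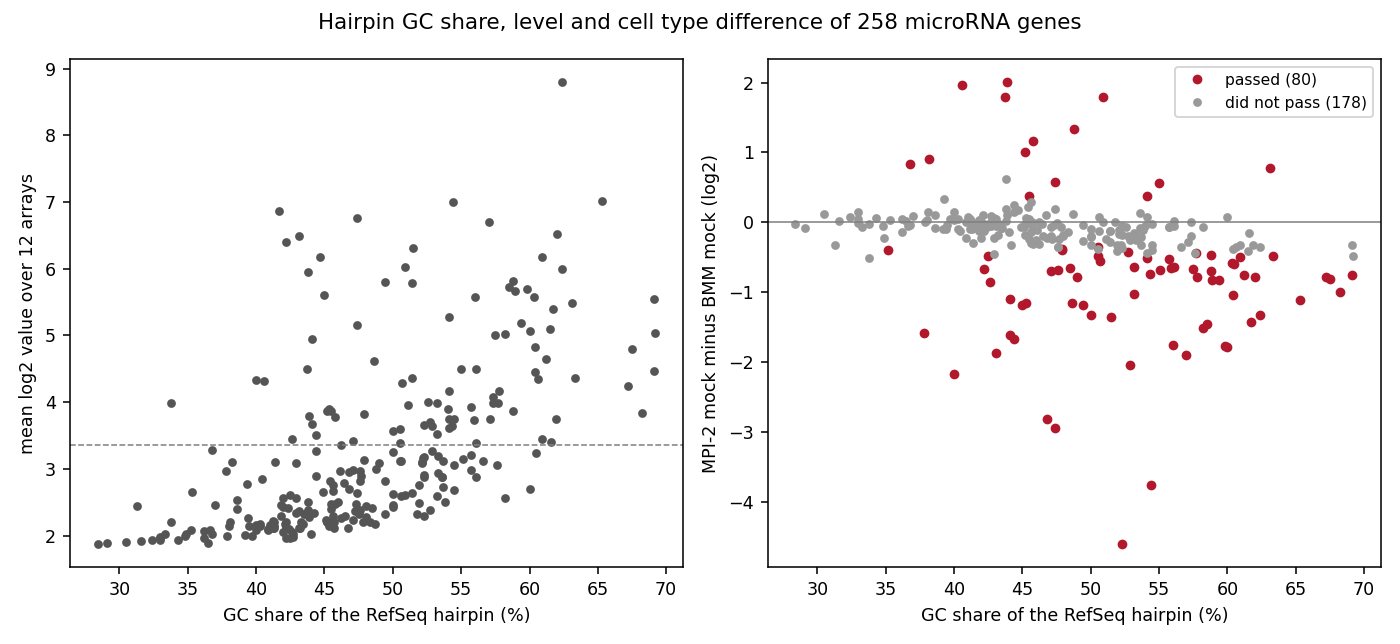
Each point is 1 of 258 microRNA genes, placed by the GC share of its hairpin in percent; the left panel gives the mean log2 level over 12 arrays with background (3.36) as a dashed line, and the right panel the log2 difference of MPI-2 mock minus BMM mock, with genes past the adjusted p threshold of 0.05 in red. Levels lay higher at a high GC share, and 34 of 65 genes in the group of highest GC share were lower in MPI-2 mock.

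Arrays of 1 group correlated at 0.994 to 0.996 in MPI-2 LPS, 0.994 to 0.995 in MPI-2 mock, 0.975 to 0.988 in BMM LPS and 0.978 to 0.989 in BMM mock, so BMM arrays varied more. All 8 macrophage markers tested, among them Csf1r, Itgam and Adgre1, lay above background in all 4 groups. Of markers of other cells, Pax5 (B cell), Cd3e and Cd4 (T cell), Elane (neutrophil), Epor (erythroid), Col1a1, Col1a2 and Col3a1 (fibroblast) and Alb and Apoa1 (hepatocyte) lay above it in at least 1 group. In bulk samples, fewer cells of a type and less RNA per cell cannot be told apart.

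LPS raised 15 and lowered 1 of the microRNA genes in MPI-2, and raised 21 and lowered 20 in BMM (adjusted p under 0.05 by limma). Mir155 rose most in both cell types, and Mir221, Mir222, Mir674, Mir146b and Mirlet7i also rose in both. Mir687 fell in both, but its mean of 3.10 over the 12 arrays and both its BMM groups lay below background. In MPI-2, 9 genes changed without passing in BMM, and 34 did the reverse, which alone shows no difference between the cells. As a background, in MPI-2 5.17% of all genes rose and 9.58% fell, beside 5% and 0.333% of the microRNA genes. In BMM 10.3% of all genes rose and 15.4% fell, beside 7% and 6.67% of the microRNA genes. The shares that rose thus lay near or below those of all genes, and the shares that fell lay below them. These shares count genes at background, and fewer microRNA genes lay above it (37.7% against 60.3% of all genes). The median change was 0.05 in MPI-2 and 0.07 in BMM for microRNA genes, where that of all genes was 0.02 and 0.04. With at least 1 compared group above background, the medians were 0.20 in MPI-2 and 0.06 in BMM for microRNA genes. Those of all such genes were -0.05 and -0.04. Of the called genes, 1 in MPI-2 and 3 in BMM had both groups below background. The 4 groups share 1 estimate of spread, and the order of the counts turned when only the arrays of each comparison were fitted, to 38 in MPI-2 (31 higher, 7 lower) and 29 in BMM (13 higher, 16 lower). The MPI-2 count was 25 with arrays scaled by cyclic loess, and 34 without replicate 1 of BMM mock and replicate 3 of BMM LPS.

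Mir155 was read at 7.61, 7.61 and 7.50 in MPI-2 LPS, against 3.52, 3.61 and 3.21 in MPI-2 mock. In BMM it was read at 9.59, 9.65 and 9.65 after LPS, against 5.23, 5.20 and 5.53 in mock. The LPS arrays lay far above the mock arrays in both cell types, with no overlap, and MPI-2 mock lay at about background. Mir155, whose product targets the signalling inhibitors Socs1 and Inpp5d, rose by 4.12 ± 0.13 (SE, log2) in MPI-2, or 17.4-fold (adjusted p = 9.41e-12). It rose by 4.31 ± 0.13 in BMM, or 19.8-fold (adjusted p = 4.54e-12). The difference of the responses was -0.19 ± 0.19 (adjusted p = 0.66). Its level was lower in MPI-2 than in BMM both in LPS (-2.06 ± 0.13) and in mock (-1.87 ± 0.13).

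Mir221 and Mir222 are neighbours on the X chromosome whose products are known to lower the cell cycle inhibitor Cdkn1b. Mir221 was read at 7.36, 7.21 and 7.57 in MPI-2 LPS, against 3.62, 4.01 and 3.94 in MPI-2 mock. It was read at 8.51, 8.71 and 9.71 in BMM LPS, against 6.48, 7.25 and 6.70 in BMM mock. Mir222 was read at 7.14, 7.35 and 7.20 in MPI-2 LPS, against 3.69, 3.73 and 4.06 in MPI-2 mock. The LPS and mock arrays did not overlap for either locus, and MPI-2 mock lay close to background while BMM mock lay well above it. Mir222 was read at 9.22, 9.15 and 9.69 in BMM LPS, against 7.97, 7.59 and 7.21 in BMM mock. The rise was 3.53 ± 0.26 in MPI-2 and 2.17 ± 0.26 in BMM for Mir221 (adjusted p = 1.72e-07 and 1.03e-05). It was 3.40 ± 0.19 in MPI-2 and 1.77 ± 0.19 in BMM for Mir222 (adjusted p = 6.96e-09 and 3.06e-06). Both responses were larger in MPI-2, by 1.36 ± 0.37 for Mir221 (adjusted p = 0.0215) and by 1.64 ± 0.27 for Mir222 (adjusted p = 0.000521), from a lower mock level.

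Mir146 and Mir146b, the loci of miR-146a and miR-146b, share a seed but not a chromosome. Mir146 was read at 4.51, 4.30 and 4.77 in MPI-2 LPS, against 2.58, 2.75 and 2.61 in MPI-2 mock. It was read at 4.77, 5.74 and 5.44 in BMM LPS, against 3.87, 5.46 and 5.12 in BMM mock. Mir146 was below background in MPI-2 mock and above it in the other 3 groups, and its BMM arrays overlapped. It rose by 1.88 ± 0.32 in MPI-2 (adjusted p = 0.000604), against 0.50 ± 0.32 in BMM (adjusted p = 0.289), and the difference of 1.38 ± 0.45 did not pass (adjusted p = 0.0549). Mir146b was read at 5.74, 5.41 and 5.42 in MPI-2 LPS, against 3.86, 4.53 and 4.38 in MPI-2 mock. In BMM it was read at 4.52, 4.57 and 4.39 after LPS, against 3.66, 3.76 and 3.68 in mock. It rose in both, by 1.27 ± 0.16 in MPI-2 and 0.79 ± 0.16 in BMM, and was higher in MPI-2 than in BMM, unlike Mir146 in mock.

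**Figure D2:**
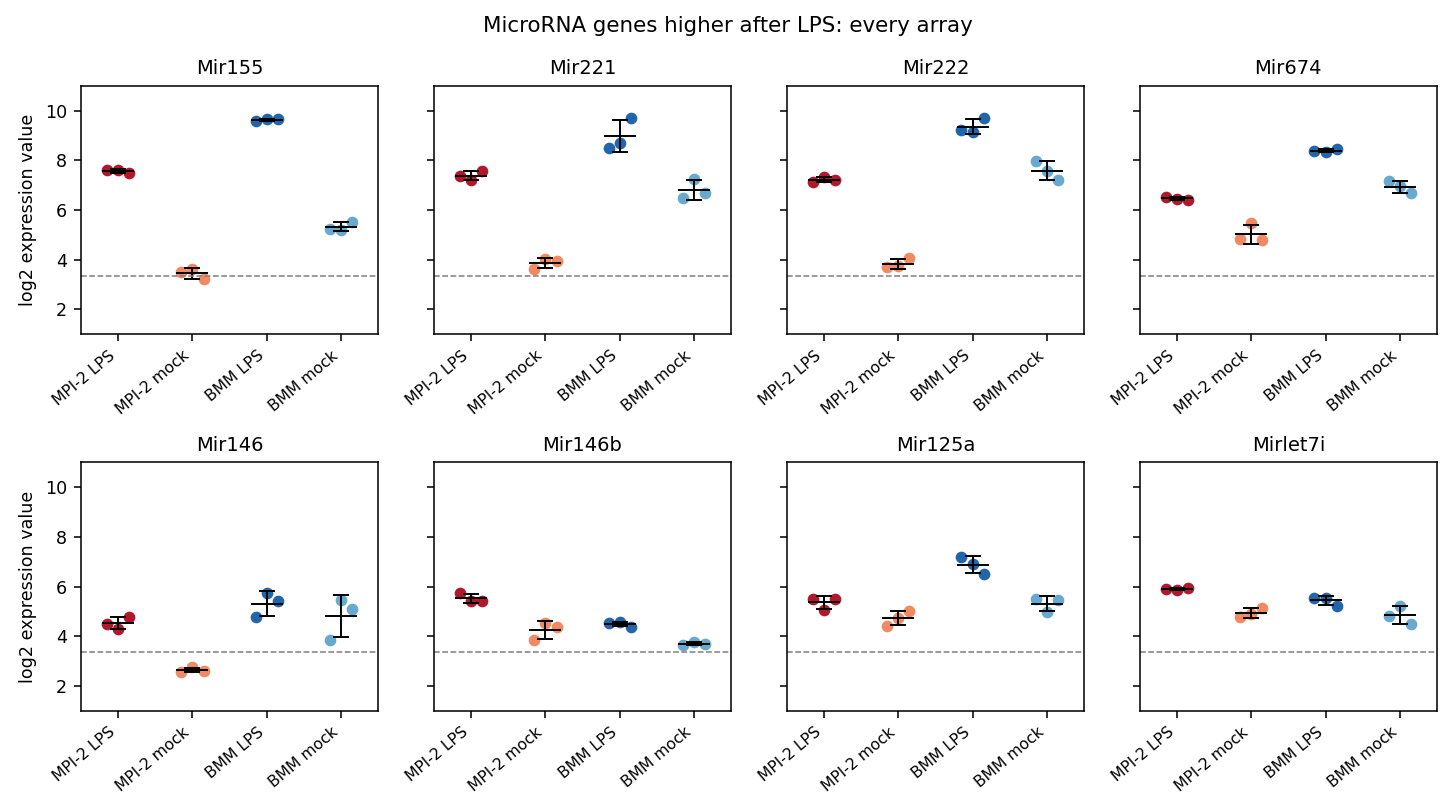
Every array's log2 value (points), with group mean and SD (bars), for 8 microRNA genes in MPI-2 LPS, MPI-2 mock, BMM LPS and BMM mock (3 arrays each); the dashed line is background (3.36). Mir155, Mir221, Mir222 and Mir674 lay higher in LPS than in mock on every array of both cell types.

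Mir674 rose by about the same amount in the cells, 1.44 ± 0.17 in MPI-2 and 1.47 ± 0.17 in BMM, with a difference of -0.03 ± 0.24 (adjusted p = 0.972). It was read at 6.52, 6.46 and 6.42 in MPI-2 LPS, against 4.82, 5.46 and 4.80 in MPI-2 mock. In BMM it was read at 8.39, 8.33 and 8.46 after LPS, against 7.15, 6.95 and 6.67 in mock. The groups did not overlap. Mirlet7i, a let-7 locus, rose by 0.98 ± 0.17 in MPI-2 and by 0.60 ± 0.17 in BMM. The other genes that rose in MPI-2 without passing in BMM were Mir20a (0.97), Mir19b-1 (0.87), Mir19a (0.73), Mir680-2 (0.73), Mir17hg (0.69), Mir219a-1 (0.55), Mir28a (0.53), which lay below background in all 4 groups, and Mir383 (0.38). Mir20a, Mir19b-1, Mir19a and Mir17hg belong to 1 cluster. Mir19a no longer passed when replicate 2 or 3 of MPI-2 mock, or replicate 3 of MPI-2 LPS, was left out (adjusted p = 0.0857, 0.0866 and 0.0935).

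In BMM, Mir125a rose together with its host Spaca6. Mir125a was read at 7.21, 6.92 and 6.52 in BMM LPS, against 5.51, 4.98 and 5.46 in BMM mock, with no overlap. The change of Mir125a was 0.63 ± 0.21 in MPI-2 (adjusted p = 0.0543) and 1.57 ± 0.21 in BMM (adjusted p = 2.67e-05). Spaca6 rose by 0.67 ± 0.15 in MPI-2 and by 1.73 ± 0.15 in BMM (adjusted p = 0.00635 and 4.25e-07). The cluster neighbours Mir99b and Mirlet7e did not pass in BMM, at 0.74 ± 0.28 and 0.76 ± 0.38 (adjusted p = 0.0677 and 0.167). The difference for Mir125a was -0.94 ± 0.29 (adjusted p = 0.0435), and it no longer passed when any 1 of 9 arrays was left out, with values of -0.77 to -1.02 and adjusted p up to 0.128. Of 5 loci within Clcn5, Mir501, Mir362 and Mir500 rose in BMM, by 1.01 ± 0.12, 0.83 ± 0.16 and 0.76, where Clcn5 rose by 1.18 ± 0.22. The means of these loci over the 12 arrays (3.12, 3.35 and 3.19) lay below background, as did their BMM mock means. Mir188 (0.52, adjusted p = 0.0576) and Mir532 (0.13, adjusted p = 0.726) did not pass. Mir378a rose by 0.85 ± 0.14 and the host transcript Mir100hg by 1.13 ± 0.13. Mir100hg was read at 3.74, 3.79 and 3.69 in BMM LPS, against 2.70, 2.71 and 2.42 in BMM mock. It thus lay a little above background in BMM LPS only. Mir100 lay below background in every group and did not pass in BMM (0.12).

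The largest decreases in BMM were those of Mir99a and Mirlet7c-1, which lie side by side. Mir99a, whose product is known to target mTOR, lay below background in MPI-2, at 2.34, 2.30 and 2.16 in LPS, against 2.16, 2.26 and 2.33 in mock. It was read at 3.06, 3.46 and 3.28 in BMM LPS, against 7.83, 6.33 and 6.43 in BMM mock. Mirlet7c-1 was read at 2.22, 2.19 and 2.31 in BMM LPS, against 5.24, 4.91 and 4.90 in BMM mock. Both loci were thus clearly above background in BMM mock alone, while in BMM LPS Mir99a lay at about background and Mirlet7c-1 below it. Mir99a fell by 3.60 ± 0.28 (adjusted p = 1e-07) and Mirlet7c-1 fell by 2.78 ± 0.15 (adjusted p = 1.2e-09). The responses differed from those of MPI-2, where neither locus was above background, by 3.61 ± 0.39 and 2.90 ± 0.21.

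The neighbouring transcript Mir99ahg gave probe sets that disagree. In MPI-2 the probe set of highest mean lay below background, at 1.97, 2.03 and 2.16 in LPS, against 2.01, 2.43 and 2.17 in mock. In BMM it was read at 7.65, 7.25 and 7.39 in LPS, against 3.89, 5.50 and 5.54 in mock, a rise of 2.46 ± 0.31 (adjusted p = 1.96e-05). Another was read at 3.45, 3.74 and 3.56 in BMM LPS, against 5.77, 5.80 and 6.26 in BMM mock, a difference of -2.36. The third was read at 2.49, 2.21 and 2.77 in BMM LPS, against 4.69, 4.02 and 3.35 in BMM mock, a difference of -1.53, and the fourth gave -0.00. So 2 of the 4 probe sets went the way of Mir99a and Mirlet7c-1 and 1 went the opposite way. With the mean of the 4 probe sets the call turned to -0.36 (adjusted p = 0.0224), so no direction is given for this transcript as a whole.

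**Figure D3:**
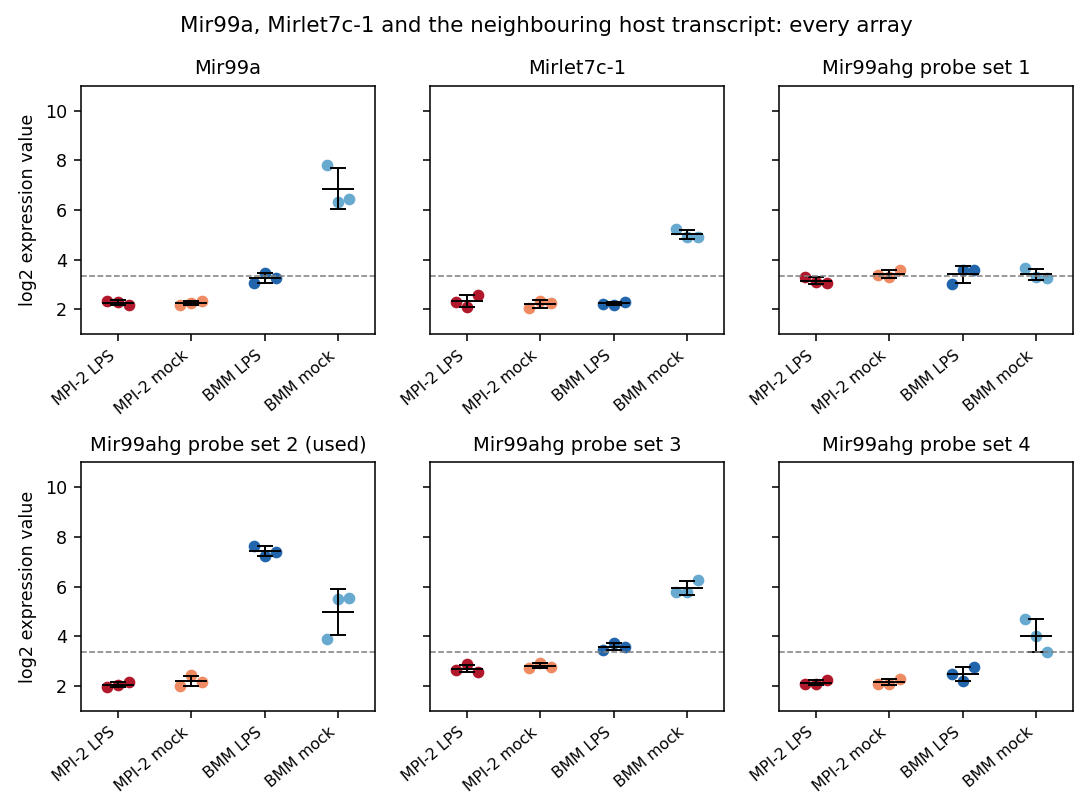
Log2 values of every array (points) with group mean and SD (bars) for Mir99a, Mirlet7c-1 and the 4 probe sets of Mir99ahg in MPI-2 LPS, MPI-2 mock, BMM LPS and BMM mock; the dashed line is background (3.36). Mir99a, Mirlet7c-1 and probe sets 3 and 4 were lower in BMM LPS than in BMM mock, probe set 2 was higher, and MPI-2 lay near or below background in all panels.

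Several of the other loci that fell in BMM did so together with their host genes. Mir340, within Rnf130, was read at 2.19, 2.16 and 2.05 in BMM LPS, against 4.13, 4.87 and 4.26 in BMM mock. It fell by 2.28 ± 0.18, while Rnf130 fell in both cell types (-1.24 ± 0.18 in MPI-2, where Mir340 lay below background, and -1.47 ± 0.18 in BMM). Mir140, within Wwp2 and known for its role in cartilage, was read at 3.25, 2.98 and 2.74 in BMM LPS, against 5.44, 4.47 and 4.48 in BMM mock. In both cases the LPS arrays lay below background and below every mock array. Mir140 fell by 1.81 ± 0.22 and Wwp2 fell by 0.95 ± 0.16. Mir186 fell by 1.27 ± 0.22 and its host Zranb2 fell by 0.73 ± 0.25. Mir350 fell by 1.12 ± 0.17 and Cep170 fell by 0.90 ± 0.22, and Mir128-1 fell by 1.03 ± 0.19 and R3hdm1 fell by 0.82 ± 0.17. Mir107 (-0.58) fell with its host Pank1 (-0.46), which lay below background. Mir7-1 and Mir16-1 fell while their hosts Hnrnpk (-0.24) and Dleu2 (-0.22) did not pass. Dleu2 lay below background, at 1.86 in BMM LPS and 2.08 in BMM mock, so a fall there could hardly have been read.

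The cluster of Mir23a, Mir27a and Mir24-2, all of it above background in all 4 groups, fell in BMM. Mir23a was read at 5.40, 5.60 and 4.82 in BMM LPS, against 7.39, 6.46 and 6.89 in BMM mock. Mir27a was read at 5.80, 5.77 and 4.97 in BMM LPS, against 7.50, 6.38 and 7.09 in BMM mock. Mir24-2 was read at 5.56, 5.60 and 4.82 in BMM LPS, against 6.50, 6.03 and 6.46 in BMM mock. For each locus all LPS arrays lay below all mock arrays. In MPI-2 the changes were -0.17 for Mir23a, -0.16 for Mir27a and 0.15 for Mir24-2 and did not pass. In BMM they were -1.64 ± 0.24, -1.48 ± 0.25 and -1.0 ± 0.20. The differences of 1.47 ± 0.34, 1.32 ± 0.36 and 1.15 ± 0.28 passed. Mir34a, a target of p53, fell by 1.59 ± 0.29 in BMM. Mir142 (-1.25 ± 0.17), Mir15a (-1.16 ± 0.24), Mir7-1 (-1.01 ± 0.17), Mir16-1 (-0.84 ± 0.21) and Mir15b (-0.67 ± 0.20) fell there as well.

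The LPS responses themselves differed for 26 microRNA genes, 21 higher in MPI-2 than in BMM and 5 lower, which is 7% and 1.67% of the set. Of all genes 7.08% were higher and 6.27% lower in that comparison. Of the 21, the values for Mir221 and Mir222 came from a larger rise in MPI-2, while Mir99a, Mirlet7c-1, Mir340, Mir140, Mir23a, Mir27a, Mir24-2, Mir186, Mir142, Mir350, Mir128-1, Mir7-1, Mir15a, Mir16-1 and Mir15b had fallen in BMM without passing in MPI-2, and the other 4 were Mir18, Mir19b-1, Mir680-2 and Mir680-3, of which Mir19b-1 and Mir680-2 had risen in MPI-2. The 5 lower ones were Mir99ahg, Mir100hg, Mir501, Mir125a and Mir378a, of which the last 4 had risen in BMM without passing in MPI-2, and no direction is given for Mir99ahg. In both MPI-2 groups 10 of the 26 lay below background, namely Mir99a, Mirlet7c-1, Mir340, Mir140, Mir350 and Mir128-1 of the 21, and Mir99ahg, Mir100hg, Mir501 and Mir378a of the 5. For those 6 of the 21 a fall in MPI-2 would be hard to read, and the difference mostly restates the fall in BMM. Their changes in MPI-2 ran from -0.41 for Mir340 to 0.47 for Mir350 and did not pass. The count was 40 (25 higher, 15 lower) without replicate 1 of BMM mock and replicate 3 of BMM LPS.

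**Figure D4:**
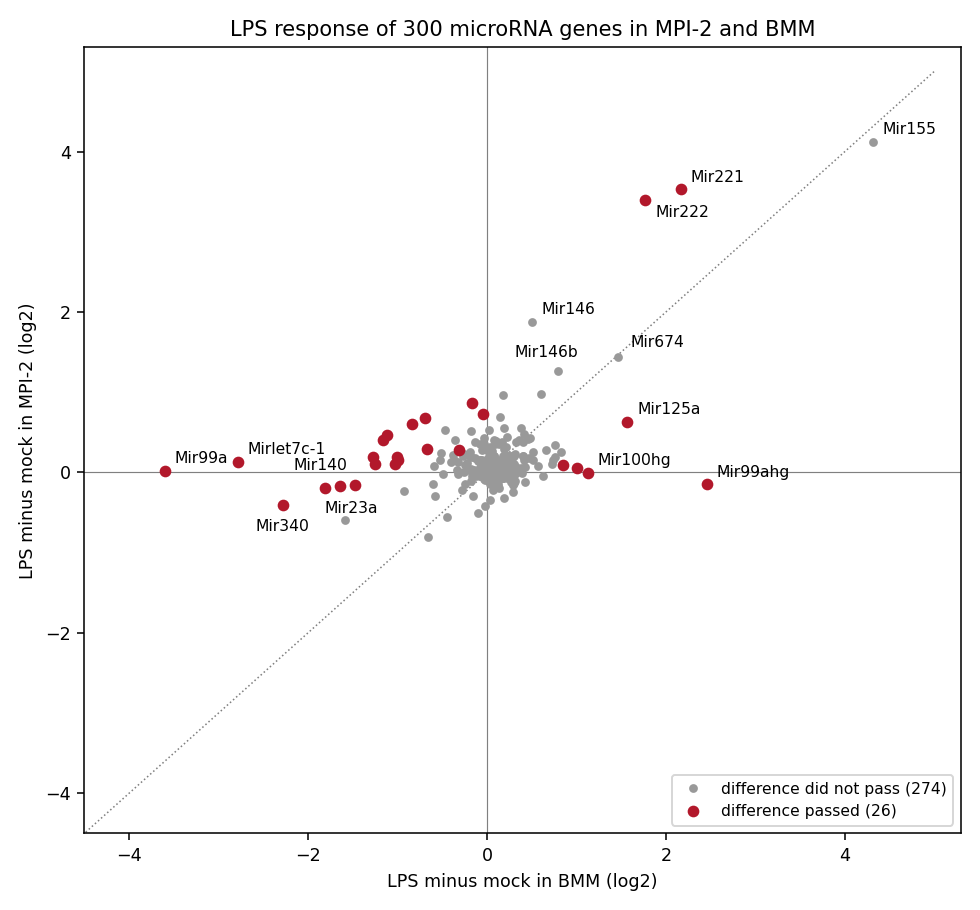
LPS minus mock in MPI-2 (y axis) and in BMM (x axis), both as log2 differences of 3 against 3 arrays, for 300 microRNA genes; the dotted line marks equal responses, and the 26 genes whose difference passed an adjusted p of 0.05 are red. Mir155 and Mir674 lay near the line of equal responses, Mir221 and Mir222 above it, and Mir99a, Mirlet7c-1 and Mir340 far left near the zero line of MPI-2.

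Between the cell types the largest groups were microRNA genes lower in MPI-2. In mock, 15 were higher and 84 lower in MPI-2 than in BMM (5% and 28%), against 20.6% of all genes higher and 18% lower. In LPS, 24 were higher and 86 lower (8% and 28.7%), against 22.5% and 21.6% of all genes. Cell type is joined here with growth factor, medium and origin, which cannot be told apart. The median difference was -0.17 in mock and -0.20 in LPS for microRNA genes, against -0.10 and -0.14 for all genes. With at least 1 compared group above background, it was -0.58 in mock and -0.50 in LPS for microRNA genes. For all such genes it was -0.00 and -0.02. Arrays also differed in spread, with an interquartile range over all probe sets of 2.95 to 3.04 in MPI-2 LPS, 3.06 to 3.21 in MPI-2 mock, 2.38 to 2.69 in BMM LPS and 2.78 to 2.88 in BMM mock. Of 1027 Olfr genes, 1 was higher and 84 lower in mock, and 7 were higher and 169 lower in LPS. Of the microRNA genes called, 11 in mock and 26 in LPS had both groups below background. The called-lower genes also moved with hairpin GC share, with 4, 10, 18 and 34 of them in mock in the 4 groups of increasing GC share and medians of -0.03, -0.06, -0.24 and -0.48. With cyclic loess the median of microRNA genes was -0.05 in mock and -0.03 in LPS, and that of all genes -0.01 in both. The counts then were 16 higher and 71 lower in mock, and 30 higher and 65 lower in LPS. The part of base composition, of array spread and of background signal in these counts was not tested.

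Several LPS-responsive loci had the largest negative differences in mock. On the log2 scale, MPI-2 minus BMM, Mir99a stood at -4.61 ± 0.28, Mir222 at -3.76 ± 0.19, Mir221 at -2.95 ± 0.26, Mirlet7c-1 at -2.81 ± 0.15, Mir146 at -2.17 ± 0.32 and Mir155 at -1.87 ± 0.13. Mir140 stood at -2.05 ± 0.22, Mir674 at -1.90 ± 0.17 and the Mir99ahg probe set at -2.77 ± 0.31. Mir505 was read at 6.27, 6.44 and 6.17 in MPI-2 mock, against 9.67, 8.55 and 7.82 in BMM mock, a difference of -2.39 ± 0.31. Its MPI-2 arrays all lay below its BMM arrays, and it did not pass for LPS in either cell type. In LPS the largest negative differences were those of the Mir99ahg probe set (-5.38 ± 0.31), Mir222 (-2.12 ± 0.19), Mir155 (-2.06 ± 0.13), Mir674 (-1.93 ± 0.17), Mir342 (-1.87 ± 0.15), Mir221 (-1.60 ± 0.26), Mir125a (-1.52 ± 0.21), Mir505 (-1.40 ± 0.31), Mir501 (-1.31 ± 0.12) and Mir181b-1 (-1.30 ± 0.28). Mir342 lies within Evl, which differed by -0.95 ± 0.14 in LPS.

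The Mir17 cluster, whose products are known to lower the cell death gene Bcl2l11 and which Myc induces, was higher in MPI-2. Mir19a was read at 5.32, 5.16 and 5.58 in MPI-2 LPS and at 5.02, 4.44 and 4.41 in MPI-2 mock. In BMM it was read at 2.50, 2.59 and 2.68 in LPS and at 2.34, 3.03 and 2.47 in mock. It was above background on every MPI-2 array and below it on every BMM array. Mir19b-1 was read at 6.02, 5.95 and 6.29 in MPI-2 LPS and at 5.32, 5.23 and 5.11 in MPI-2 mock. Its BMM values were 3.26, 3.22 and 3.28 in LPS and 3.25, 3.82 and 3.20 in mock, at about background. In mock the differences were 2.01 ± 0.19 for Mir19a, 1.79 ± 0.16 for Mir19b-1, 1.17 ± 0.18 for Mir20a, 1.01 ± 0.15 for Mir17 and 0.60 ± 0.19 for the host transcript Mir17hg. Mir18 differed by 0.62 ± 0.30 in mock, which did not pass (adjusted p = 0.116), and by 1.99 ± 0.30 in LPS (adjusted p = 4.66e-05). In LPS the differences were 2.83 ± 0.16 for Mir19b-1, 2.77 ± 0.19 for Mir19a, 1.96 ± 0.18 for Mir20a, 1.14 ± 0.19 for Mir17hg and 0.99 ± 0.15 for Mir17. Of the 14 measured genes of this family 9 lay above background, and 6 were higher and 0 lower in MPI-2 mock by limma (0 lower at an unadjusted p under 0.05), with a median of 0.38 against -0.10 for all genes, of which 20.6% were higher and 18% lower. In LPS 6 were higher and 1 lower (all genes 22.5% and 21.6%). Those higher in mock were Mir25 and, of the Mir17 cluster, Mir17, Mir19a, Mir20a, Mir19b-1 and Mir17hg. All 6 higher in LPS belonged to the Mir17 cluster. Loci of a cluster share a primary transcript, so these counts are not of independent genes.

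The related cluster of Mir25, Mir93 and Mir106b lies within Mcm7, a subunit of the replicative helicase, on the same strand. Mcm7 was higher in MPI-2 by 2.80 ± 0.11 in mock and by 3.44 ± 0.11 in LPS. In mock, Mir25 differed by 0.78 ± 0.17 (adjusted p = 0.00165), Mir93 by -0.07 ± 0.14 (adjusted p = 0.722) and Mir106b by 0.01 ± 0.23 (adjusted p = 0.985). In LPS, Mir106b was lower in MPI-2, opposite to its host (-0.67 ± 0.23, adjusted p = 0.0274), and Mir25 did not pass (0.37, adjusted p = 0.0895). The Mir106b arrays overlapped, at 3.70, 3.85 and 3.88 in MPI-2 LPS, against 4.97, 4.69 and 3.77 in BMM LPS. LPS lowered Mcm7 (-0.65 ± 0.11 in MPI-2 and -1.29 ± 0.11 in BMM), and 0 of the 3 loci passed for LPS in either cell type by limma (1 in MPI-2 and 1 in BMM at an unadjusted p under 0.05). Mir301 and its host Ska2 were both higher in MPI-2 mock, by 1.33 ± 0.26 and 2.17 ± 0.17.

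Of the Mir15 and Mir16 loci, known to lower Bcl2 and cyclins, the pair on chromosome 3 was higher in MPI-2. Mir15b was read at 5.57, 5.49 and 5.99 in MPI-2 LPS and at 5.46, 5.34 and 5.39 in MPI-2 mock, against 2.64, 2.58 and 3.09 in BMM LPS and 3.14, 3.93 and 3.25 in BMM mock. The MPI-2 arrays all lay above the BMM arrays, which lay near or below background. Mir15b differed by 1.96 ± 0.20 in mock and 2.92 ± 0.20 in LPS, and Mir16-2 by 0.84 ± 0.25 and 0.65 ± 0.25 in the same order. Smc4, a condensin subunit that overlaps both on a strand not given in the table used, differed by 1.13 ± 0.28 and 2.07 ± 0.28. The other pair went otherwise in mock, with Mir15a at -0.56 ± 0.24 (adjusted p = 0.0823) and Mir16-1 at -1.10 ± 0.21 (adjusted p = 0.000493). In LPS Mir15a differed by 1.01 ± 0.24 (adjusted p = 0.00337). Mir16-2 in mock no longer passed when replicate 1 of BMM mock or replicate 2 of MPI-2 mock was left out (adjusted p = 0.0606 and 0.075). In LPS its arrays overlapped, at 3.93, 3.31 and 3.90 in MPI-2 against 2.81, 2.66 and 3.71 in BMM (adjusted p = 0.0468 by limma). Its mean over all arrays, 3.28, lay below background. Mir6516 was also higher in MPI-2, by 1.79 ± 0.29 in mock and 2.25 ± 0.29 in LPS, and Mir687 by 0.90 ± 0.17 in mock. In LPS, Mir7-1 was higher by 1.14 ± 0.17 and Mir146b by 1.03 ± 0.16.

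**Figure D5:**
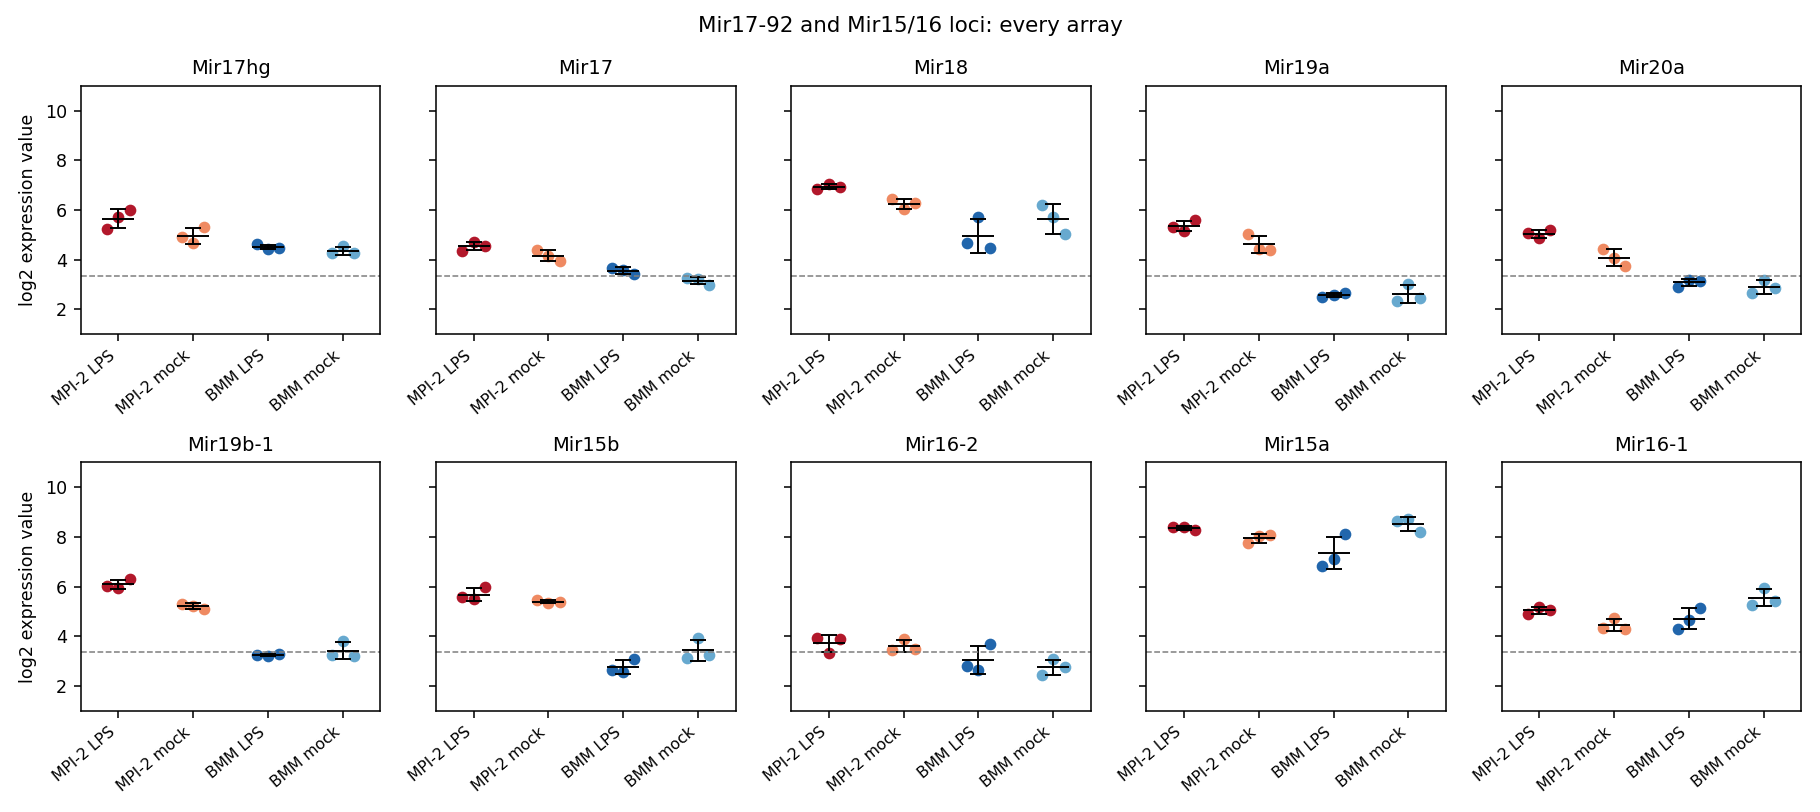
Log2 values of every array (points) with group mean and SD (bars) for Mir17hg, 5 loci of its cluster, Mir15b, Mir16-2, Mir15a and Mir16-1 in MPI-2 LPS, MPI-2 mock, BMM LPS and BMM mock; the dashed line is background (3.36). Mir19a, Mir20a and Mir15b lay above background on all MPI-2 arrays, and Mir19a and Mir20a below it on all BMM arrays.

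Of 30 measured loci known from macrophages and immune cells, 19 lay above background. With LPS 5 rose and 0 fell in MPI-2 by limma (0 fell at an unadjusted p under 0.05; median 0.09, all genes 0.02), 5 rose and 5 fell in BMM (median 0.08, all genes 0.04), and in mock 1 was higher and 17 lower in MPI-2 (median -0.54, all genes -0.10). Of all genes 5.17% rose and 9.58% fell in MPI-2, 10.3% rose and 15.4% fell in BMM, and 20.6% were higher and 18% lower in mock, so the 5 of 30 that fell in BMM lay near the share of all genes. Beyond those described, Mir212 averaged 4.73 in MPI-2 LPS, 4.80 in MPI-2 mock, 5.33 in BMM LPS and 5.29 in BMM mock. Mir150, Mir187, Mir210 and Mir342 did not pass for LPS in either cell type, and in mock they were lower in MPI-2, with differences of -0.77 ± 0.18, -0.88 ± 0.20, -0.75 ± 0.17 and -1.36 ± 0.15. The loci not above background by their mean were Mir9-1 (2.84), Mir9-3 (2.66), Mir125b-1 (2.60), Mir125b-2 (2.23), Mir132 (3.05), Mir29a (2.40), Mir29b-1 (2.08), Mir33 (2.20), Mir181a-1 (2.61), Mir181a-2 (2.96) and Mir181b-2 (2.65). Of 10 let-7 loci 4 lay above background, namely Mirlet7d at 6.17, Mirlet7a-1 at 3.45, Mirlet7i and Mirlet7e. Mirlet7f-1, in the cluster of Mirlet7d, stood at 2.77.

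Hosts and loci moved together in part. Of 34 pairs of a locus above background and a host on its strand, 29 with the host above background as well, both members passed in the same direction in 0 pairs for LPS in MPI-2 by limma, in 5 for LPS in BMM, in 9 between the cell types in mock and in 13 between them in LPS. Between the cell types they passed in opposite directions in 3 pairs in mock and 3 in LPS. The 34 pairs hold 30 hosts. For LPS in MPI-2 the locus passed in 0 of the 34 pairs, so a shared call could not occur there. The host alone passed in 10 of them. At an unadjusted p under 0.05 by limma, both members passed there in the same direction in 2 pairs and in opposite directions in 1. In mock the locus alone passed in 11 pairs and the host alone in 8.

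Genes that make and use microRNAs changed as well, 31 of the 32 measured lying above background. In MPI-2, 7 fell and 0 rose with LPS by limma (0 rose at an unadjusted p under 0.05), with a median of -0.10 against 0.02 for all genes, of which 9.58% fell and 5.17% rose. These values for all genes, here and below, include genes at background. For genes with at least 1 compared group above background the median was -0.05. Drosha was read at 4.15, 3.84 and 4.05 in MPI-2 LPS, against 5.23, 5.28 and 4.82 in MPI-2 mock, and fell by 1.10 ± 0.16. The others were Tnrc6b (-1.14 ± 0.16), Ago1 (-0.84 ± 0.12), Prkra (-0.73 ± 0.14), Tnrc6c (-0.70 ± 0.15), Tnrc6a (-0.62 ± 0.16) and Adar (-0.53 ± 0.15).

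In BMM 5 rose and 11 fell with LPS, with a median of -0.17 against 0.04 for all genes, of which 10.3% rose and 15.4% fell. The median was -0.04 for genes with at least 1 compared group above background. Ago4, an Argonaute, was read at 3.21, 3.69 and 3.29 in BMM LPS, against 6.58, 6.65 and 6.79 in BMM mock, and fell by 3.28 ± 0.16. Tut4, which adds uridines to precursor microRNAs, changed by -1.81 ± 0.24 and Tnrc6a, a silencing cofactor of Argonautes, by -1.62 ± 0.16. Ago4 in BMM LPS thus lay at about background, and its groups did not overlap. Drosha (-0.57 ± 0.16), Dgcr8 (-0.68 ± 0.15), Dicer1 (-0.56 ± 0.13) and the exporter Xpo5 (-0.61 ± 0.15) fell, while Ago3 rose by 1.36 ± 0.14, Mov10 by 1.23 ± 0.22, Adar by 0.92 ± 0.15, Ago1 by 0.45 ± 0.12 and Ddx17 by 0.44 ± 0.12. Tnrc6b, Prkra, Hnrnpa2b1 and Ncbp1 fell too, with changes of -0.40 to -0.60. The responses of Ago1 and Adar were opposite in the cell types, and their differences passed (-1.29 ± 0.17 and -1.45 ± 0.21, MPI-2 minus BMM). The differences of Ago4 (3.22 ± 0.22), Tut4 (1.63 ± 0.34), Tnrc6a (1.0 ± 0.23), Ago3 (-1.24 ± 0.20), Mov10 (-1.60 ± 0.32), Khsrp (-0.72 ± 0.21) and Ddx17 (-0.54 ± 0.17) passed too. In MPI-2 Ago4 lay below background and Tut4 close to it in both groups, so a fall there could hardly have been read and these 2 differences restate the fall in BMM.

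In mock, 15 of these genes were higher and 7 lower in MPI-2 than in BMM, with a median of 0.33 against -0.10 for all genes, of which 20.6% were higher and 18% lower, so the 7 lie near the share of all genes. The median was -0.00 for genes with at least 1 compared group above background. Ncbp1, a cap-binding subunit, was higher by 2.66 ± 0.12, Ran, which powers nuclear export, by 2.01 ± 0.18, Khsrp by 1.40 ± 0.15, Dgcr8 by 1.38 ± 0.15, Ago2 by 1.27 ± 0.19 and Xpo5 by 1.05 ± 0.15. Tut4 was read at 3.21, 3.78 and 3.56 in MPI-2 mock, against 7.84, 8.80 and 8.66 in BMM mock, a difference of -4.92 ± 0.24. Ago4 differed by -3.78 ± 0.16 and Ago3 by -1.70 ± 0.14. Tut4 and Ago4 were close to or below background in MPI-2. In LPS, 15 were higher and 9 lower (all genes 22.5% and 21.6%), led by Ncbp1 (2.96 ± 0.12) and Tut4 (-3.29 ± 0.24).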

How the data were processed

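The deposited table holds 1 log2 value per probe set and array, made by the authors with RMA and the package affy per the submitters' processing notes, with no version named there. RMA scales arrays against each other, so a difference is relative to the other genes, but the deposited values do not share 1 distribution (array medians of 3.68 to 3.94 over genes). Log base 2 was taken from the method and the range of 1.18 to 12.82. Of 34760 probe sets 21640 name 1 gene, 1321 several and 11799 none here.

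A model of 4 group means was fitted to 12 arrays and 19937 genes, with no filter, in limma 3.58.1 (R 4.3.3, lmFit and eBayes, 8 residual and 6.99 prior degrees of freedom). P-values were adjusted by Benjamini-Hochberg over all genes of each of 5 comparisons, at 0.05. The comparisons share arrays. Hosts and clusters (loci within 10 kb) came from the RefSeq table of GRCm38.p6. Members and lists were chosen with earlier results of these data known. Named are up to 10 called increases and 10 called decreases a comparison with a group above background, the 15 highest levels, a macrophage list, hosts and called pathway genes, in part. The fit was tested on simulated data. Same-numbered arrays deviated together weakly or not at all (r from -0.18 to 0.28 over 18 pairs, 5 over 0.1). The numbers are those of the titles, from which the descriptions of the MPI-2 mock arrays depart. There is no read depth, and the precision is limited by the number of arrays.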

Additional observations from a re-analysis of the deposited data

Results flagged for a closer look

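For 26 microRNA genes the response to LPS differed between the cell types, as an interaction that passed an adjusted p of 0.05 in limma (log2, MPI-2 minus BMM). Among loci that fell in BMM the differences were 3.61 for Mir99a, 2.90 for Mirlet7c-1, 1.88 for Mir340, 1.61 for Mir140, 1.59 for Mir350, 1.57 for Mir15a, 1.47 for Mir23a, 1.46 for Mir186, 1.44 for Mir16-1, 1.34 for Mir142, 1.32 for Mir27a, 1.20 for Mir7-1, 1.15 for Mir24-2, 1.14 for Mir128-1 and 0.96 for Mir15b. Of these, Mir99a, Mirlet7c-1, Mir340, Mir140, Mir350 and Mir128-1 lay below background in both MPI-2 groups, where a fall would be hard to read. Their differences mostly restate the fall in BMM. Their changes in MPI-2 ran from -0.41 for Mir340 to 0.47 for Mir350 and did not pass. Among loci that rose more in MPI-2 the differences were 1.64 for Mir222 and 1.36 for Mir221. Mir18 differed by 1.37, Mir19b-1 by 1.04, Mir680-2 by 0.77 and Mir680-3 by 0.58. Differences below 0 were -2.61 for Mir99ahg, -1.14 for Mir100hg, -0.95 for Mir501, -0.94 for Mir125a and -0.76 for Mir378a. That of Mir99ahg rests on 1 of its 4 probe sets. Mir378a no longer passed when replicate 1 of MPI-2 mock or replicate 3 of MPI-2 LPS was left out (adjusted p = 0.0595 and 0.0578).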

How the results depend on the processing

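Of 1600 alternative values for 86 named results, 1582 kept their direction and side of the threshold, 16 no longer passed, in Mir19a (LPS in MPI-2), Mir125a and Mir378a (difference) and Mir16-2 (mock), and 2 reversed, both Mir99ahg with the mean of its probe sets (-0.36 for LPS in BMM, and 0.23 for the difference, where the main value is -2.61). The causes were not tested. The count for LPS in MPI-2, 16, became 25 with cyclic loess, 38 with the arrays of the 2 groups only and 34 without replicate 1 of BMM mock and replicate 3 of BMM LPS, and that for the difference, 26, became 40 without those 2 arrays. The count for MPI-2 against BMM in LPS, 110, became 72 among genes above background, where 113 microRNA genes are tested. Above the 99th percentile of Olfr genes (4.14) lay 71 microRNA genes, in place of 113. Leaving out each array in turn gave counts of 12 to 24 for LPS in MPI-2, 36 to 52 for LPS in BMM, 21 to 28 for the difference, 78 to 113 for MPI-2 against BMM in mock, 77 to 117 in LPS, and 111 to 114 above background. Whether array numbers pair the samples is not known. With the replicate block the counts, in this order up to MPI-2 against BMM in LPS, were 20, 46, 28, 101 and 111, in place of 16, 41, 26, 99 and 110. Cyclic loess moved the median of all genes for MPI-2 against BMM in LPS to -0.01, against -0.14. Precision is limited by 3 arrays a group, and loci near background carry only a bound.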
